A study of Mus musculus with 9 samples.

Results

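Transcripts of p53's inhibitors and of genes through which p53 slows or stops cell growth were measured in mouse BC3H1 cells on Affymetrix arrays. The members are Trp53, Mdm2, Mdm4, Cdkn1a, Ccng1, Gadd45a, Trp53inp1, Plk2, Phlda3 and Btg2, and a probe set counted as a member when its single gene symbol was one of these. Of the 10 genes, 9 were measured, by 20 probe sets, out of 18193 genes measured in all; Trp53 itself was not analysed here. BC3H1 is a brain tumour line with muscle-like traits. The 9 arrays form 3 groups of 3: a resistant line kept in 1 uM rapamycin, rapamycin-sensitive BC3H1 cells after 24 h in 100 nM rapamycin, and the same sensitive cells after 24 h in DMSO, the solvent. The resistant line was derived from BC3H1 by 6 months in 1 uM rapamycin, stayed in the drug, and is 1 line, so line, months of culture and drug cannot be told apart. The dose and the time in drug also differ between the resistant and sensitive rapamycin groups. Nothing in the labels ties the replicates to separate cultures, so the p-values reflect array-to-array spread that may be only technical.

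p53 is a transcription factor that stress, such as DNA damage, stabilises. Its protein is held down by Mdm2, a ubiquitin ligase that p53 itself induces, and by the related protein Mdm4. Among the genes it switches on, Cdkn1a encodes p21, which inhibits cyclin-dependent kinases, and some others act in DNA repair, AKT signalling or RNA decay. p21 also lets the DREAM complex repress genes of DNA replication and mitosis. Rapamycin inhibits the kinase complex mTORC1, which promotes cell growth.

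The following stretches, from RefSeq promoter windows of build GRCm38.p6, are shown because their letters match the p53 half-site near the start of a member gene. Capitals mark the 10 letters of each exact half-site, a pattern that reads the same on both strands, and each stretch runs 5′ to 3′ on the gene's own strand upstream of its start.
Ccng1, chr11:40755407-40755526, minus strand: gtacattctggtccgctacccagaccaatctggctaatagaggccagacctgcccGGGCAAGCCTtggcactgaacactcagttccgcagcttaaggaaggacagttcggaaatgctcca
Cdkn1a, chr17:29090859-29090978, plus strand: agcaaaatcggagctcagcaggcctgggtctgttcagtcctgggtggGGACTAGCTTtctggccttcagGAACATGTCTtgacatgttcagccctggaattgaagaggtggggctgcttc
Gadd45a, chr6:67037408-67037527, minus strand: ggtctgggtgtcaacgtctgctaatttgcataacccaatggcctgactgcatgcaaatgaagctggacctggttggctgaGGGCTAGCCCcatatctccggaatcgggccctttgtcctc
Mdm2, chr10:117710880-117710999, minus strand: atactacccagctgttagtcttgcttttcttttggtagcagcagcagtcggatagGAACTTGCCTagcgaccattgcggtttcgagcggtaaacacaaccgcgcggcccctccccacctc

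Such a half-site was present in 2745 of all 32851 promoter windows (8.36%), each covering 250 bases before to 50 after a start. Of the 9 measured members, 8 had a window, 10 windows in all, and 4 windows from 4 genes held the half-site. The Cdkn1a window is that of the more upstream of its listed starts, and its 2 half-sites stood 12 bases apart. A pair of exact half-sites with a gap of at most 13 bases was found in 24 windows (0.0731%). In Ccng1 the 10 letters just before the half-site complete a pair with 19 of 20 letters matching, and 1.09% of windows held a pair with at most 1 letter off. In Cdkn1a the 10 letters just after the downstream half-site likewise complete a pair with 19 of 20 letters matching. Each match describes letters only, and binding was not measured.

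Most measured members were lower in the resistant line than in either group of sensitive cells, among them Ccng1 in all 3 of its probe sets. In sensitive cells with 24 h of rapamycin 4 of 17 member probe sets were called, where 28% of all tested probe sets were, a share near that background. Both Cdkn1a probe sets and 1 of 2 tested Mdm2 probe sets fell, and 1 of 2 Trp53inp1 probe sets rose. Cdkn1a was the member whose 2 probe sets were both called higher in the resistant line than in sensitive cells in rapamycin. In both comparisons the dimmer Cdkn1a probe set had overlapping groups, and its call ended when certain single arrays were left out. In a bulk sample, fewer cells of a type and less RNA per cell cannot be told apart.

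Values are linear signals (intensities) per probe set, and changes are differences in log2(signal + 16) with their standard error. Folds are these same differences put back on a linear scale, so they include the added 16 and are not ratios of the signals. A probe set was tested if its mean passed the 40th percentile, a signal of about 22.2, and called at a limma adjusted p under 0.05 over all 27022 tested probe sets. Of the 20 member probe sets 17 passed, covering all 9 measured genes. The 3 others were 1 each of Mdm2 (1457929_at), Mdm4 (1458223_at) and Plk2 (1443780_at), whose signals ran from 1.54 to 114 over the 9 arrays. In the resistant line against DMSO cells, 10 of 17 member probe sets were lower and 1 was higher, where 22% of all tested probe sets were lower and 21.7% higher (43.7% called in all). The groups did not overlap for 13 of the 17, against 52.3% of all tested probe sets. Read by each gene's brightest probe set, 7 of 9 members were lower and 1 higher, with a median change of -0.60, against 25.3% lower and 25.5% higher (50.8% called) and a median of -0.07 among all 12715 genes tested. Against sensitive cells in rapamycin, 11 of 17 member probe sets were lower and 2 higher (25.8% and 21.9% of all probe sets, 47.7% called), and 12 of 17 had groups without overlap (59% of all probe sets). By brightest probe set 6 of 9 members were lower and 1 higher (29.9% and 25.9% of all genes, 55.7% called). Between sensitive cells with and without rapamycin, 3 of 17 member probe sets were lower and 1 higher (12% and 16% of all probe sets, 28% called), a share near that background, and 7 of 17 had groups without overlap (38.1% of all probe sets). By brightest probe set 1 of 9 members was lower and 1 higher (14.5% and 19.2% of all genes, 33.7% called). The 3 comparisons share arrays in pairs and are not independent.

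Some facts of the arrays touch these values. The third DMSO array had a median signal of 66.2, against 33.5 to 44.3 on the 8 others, and calls that end without it are named with their values. The 3-prime minus 5-prime log2 difference of Actb, a measure of RNA quality, was 0.32 to 0.35 on the resistant arrays, 0.15 to 0.22 on the sensitive rapamycin arrays and 0.16 to 0.18 on the DMSO arrays. The same difference for Gapdh was -0.33 to -0.25, -0.41 to -0.33 and -0.33 to -0.30 in that order, and its resistant and DMSO ranges overlapped. The part of these differences in the results was not tested. Of 14 markers of the line's muscle-like identity 10 passed the filter, and their summed signal over all 14 was 8229 to 9971 in resistant cells, 29093 to 29484 in sensitive rapamycin cells and 23966 to 32012 in DMSO cells. Actg2, a smooth muscle actin gene, averaged 21.6 ± 5.91 in resistant, 2834 ± 89.7 in sensitive rapamycin and 3479 ± 440 in DMSO cells (SD, n = 3 each). Cnn1 (calponin) at 14.2 ± 3.03 and Chrna1 (an acetylcholine receptor subunit) at 15.1 ± 13.6 were also below the filter limit in resistant cells, while Myog (myogenin) was at 98.9 ± 9.51 there, against 17.8 ± 12.1 in sensitive rapamycin and 6.502 ± 4.85 in DMSO cells. Of these 10 markers 7 were lower and 2, Myog and Ckm, higher in resistant cells than in either sensitive group. Ckm (muscle creatine kinase) averaged 77.4 ± 9.73 in resistant, 18.1 ± 11.9 in sensitive rapamycin and 26.5 ± 9.30 in DMSO cells. Both passed the filter through their resistant arrays, so these 2 calls are not independent of the filter. Likewise Actg2, Cnn1 and Chrna1 passed it through the sensitive arrays. The part of the markers in the members' values was not tested. Leukocyte markers summed to 239 to 329.9 in resistant, 383 to 415 in sensitive rapamycin and 315 to 732 in DMSO cells, with 4 of 7 above the filter. Of those 4, Lyz2 (lysozyme) was called lower in resistant cells, at 53.8 ± 5.32, than in sensitive rapamycin (166 ± 9.98) and DMSO cells (113 ± 9.80). Mbp (myelin basic protein) was likewise called lower, at 6.94 ± 2.18 in resistant, 90.2 ± 16.4 in sensitive rapamycin and 111 ± 56.0 in DMSO cells. Neuron and glia markers summed to 138 to 179.8, 232 to 293 and 207 to 684 in the same order of groups, and epithelial and endothelial markers to 165 to 238, 142 to 259.8 and 212 to 577.

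**Figure D1:**
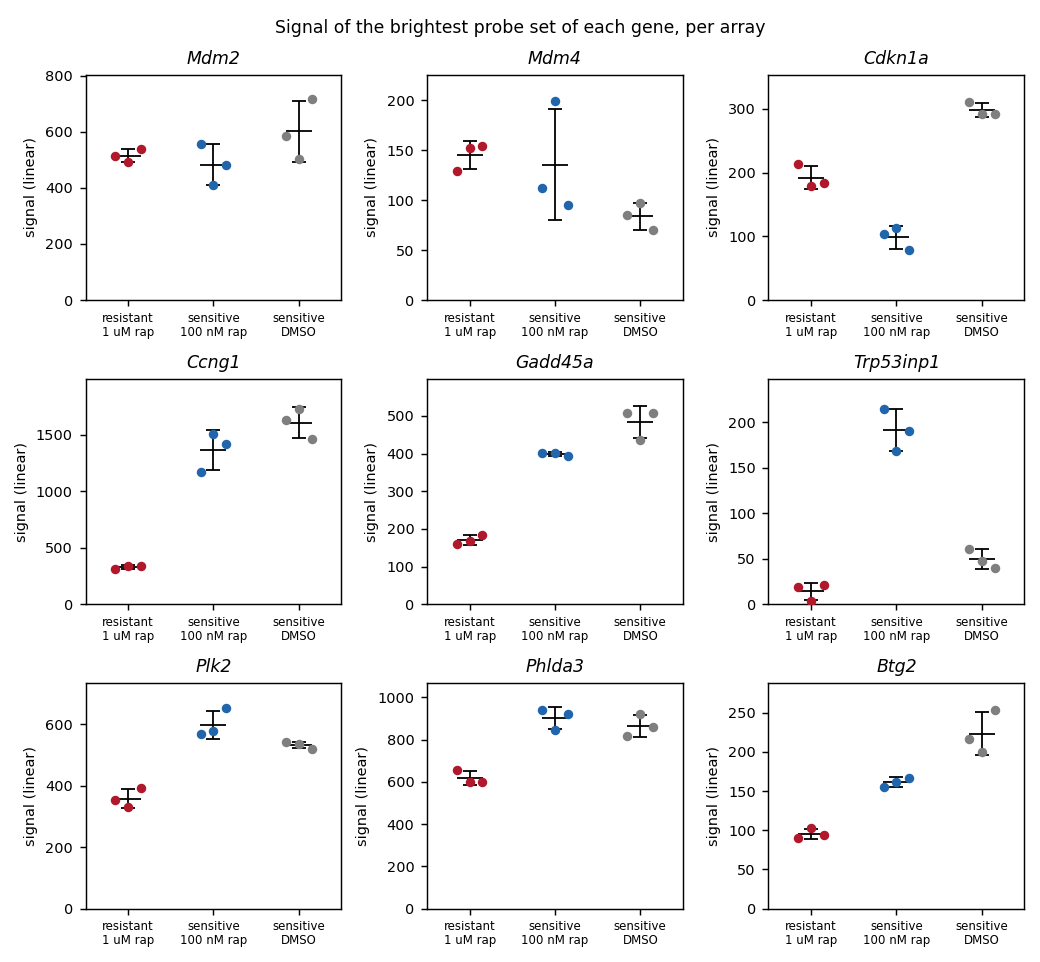
Linear signal (y axis, from 0) of the brightest probe set of each of the 9 genes on the 3 arrays of each group (points), with mean and SD (bars). Ccng1 reads 312 to 339 on the resistant arrays and at least 1167 on every other array, and Trp53inp1 stands highest on the sensitive rapamycin arrays.

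Of the inhibitors of p53, Mdm2 read through probe set 1423605_a_at gave 513, 492 and 539 on the resistant arrays, 556, 411 and 482 on the sensitive rapamycin arrays and 586, 502 and 715 on the DMSO arrays. These groups overlapped, and no comparison was called, with changes of -0.20 ± 0.13 for resistant against DMSO cells (adjusted p = 0.214), 0.10 ± 0.13 for resistant against sensitive rapamycin cells (adjusted p = 0.575) and -0.30 ± 0.13 for sensitive rapamycin against DMSO cells (adjusted p = 0.0887). The last passed without the second DMSO array (adjusted p = 0.0256) or the first sensitive rapamycin array (0.0378). A second Mdm2 probe set, 1427718_a_at, gave 348, 272 and 307 in resistant cells, 369.6, 421 and 458 in sensitive rapamycin cells and 519, 520.2 and 675 in DMSO cells. Here the 3 groups did not overlap, and the order of the levels was resistant, sensitive rapamycin, DMSO, from low to high. The change was -0.85 ± 0.13 for resistant against DMSO cells (adjusted p = 2.99e-05), -0.41 ± 0.13 against sensitive rapamycin cells (adjusted p = 0.0119) and -0.44 ± 0.13 for sensitive rapamycin against DMSO cells (adjusted p = 0.0151). The last of these calls ended without the third DMSO array (adjusted p = 0.0662) or the first sensitive rapamycin array (0.0745), and the middle one without the third sensitive rapamycin array (0.0624) or the second resistant array (0.0687). Arrays centred on the 75th percentile (adjusted p = 0.0694), quantile normalization (0.0572) or no eBayes trend (0.0506) also ended the middle call, and array weights (0.0509) or no trend (0.0682) the last. Both probe sets changed downward against DMSO cells, though only 1427718_a_at was called. They differed in sign for resistant against sensitive rapamycin cells. Averaged over its tested probe sets, Mdm2 was lower than in DMSO cells in resistant cells (-0.53, adjusted p = 0.000978) and in sensitive rapamycin cells (-0.37, adjusted p = 0.0181).

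Mdm4, which binds p53 and blocks its activity, was dimmer. Its brightest probe set, 1460542_s_at, gave 129.5, 152 and 154 in resistant cells, 112, 199 and 95.4 in sensitive rapamycin cells and 85.0, 97.1 and 69.7 in DMSO cells. All 3 resistant arrays lay above all DMSO arrays, and the sensitive rapamycin arrays spread across both. The resistant line was higher than DMSO cells by 0.70 ± 0.24 (adjusted p = 0.0238), a call that ended without the third DMSO array (adjusted p = 0.0569), without the second resistant array (0.0739) or without the third resistant array (0.0793). Averaged over its tested probe sets the change was 0.43 (adjusted p = 0.166). The suffix _s_at marks probes that other transcripts may share. The changes were 0.15 ± 0.24 against sensitive rapamycin cells (adjusted p = 0.66) and 0.55 ± 0.24 for sensitive rapamycin against DMSO cells (adjusted p = 0.097), which passed without the third sensitive rapamycin array (0.74, adjusted p = 0.042). The other 2 tested Mdm4 probe sets, 1453982_at and 1419558_at, ranged from 9.01 to 93.7 with overlapping groups and were called in no comparison (adjusted p from 0.301 to 0.948).

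Cdkn1a, the gene of p21, had its lowest level in sensitive cells in rapamycin. Probe set 1424638_at gave 213, 178 and 184 in resistant cells, 104, 113 and 78.9 in sensitive rapamycin cells and 310.1, 291 and 292 in DMSO cells. The 3 groups did not overlap, with sensitive rapamycin cells lowest, resistant cells between and DMSO cells highest. In sensitive cells it was 2.76-fold lower with rapamycin (-1.46 ± 0.16, adjusted p = 1.85e-06). The resistant line was 1.82-fold above the sensitive rapamycin cells (0.87 ± 0.16, adjusted p = 0.000167) and below DMSO cells (-0.60 ± 0.16, adjusted p = 0.00508). Averaged over both probe sets the last difference was not called (-0.45, adjusted p = 0.126).

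The dimmer Cdkn1a probe set, 1421679_a_at, gave 54.3, 75.8 and 64.8 in resistant cells, 4.49, 9.31 and 56.5 in sensitive rapamycin cells and 123, 114 and 38.1 in DMSO cells. The third sensitive rapamycin array lay within the resistant values and the third DMSO array below them, so all pairs of groups overlapped. Sensitive rapamycin cells were lower than DMSO cells (-1.57 ± 0.45, adjusted p = 0.0146) and resistant cells were higher than sensitive rapamycin cells (1.27 ± 0.45, adjusted p = 0.028). Leaving out any one of 4 arrays (the first or second DMSO array, the first or second sensitive rapamycin array) ended the call of sensitive rapamycin against DMSO cells (adjusted p from 0.0631 to 0.0823), and leaving out the first or second sensitive rapamycin array, the second resistant array or the third resistant array ended that of resistant against sensitive rapamycin cells (adjusted p from 0.0681 to 0.141). No eBayes trend ended both calls (adjusted p = 0.0636 and 0.0802), quantile normalization the first (0.0524) and a pseudocount of 64 the second (0.0516). With 2 sensitive rapamycin arrays below the filter limit, the first change was -2.47 with a pseudocount of 1 and -0.83 with 64, and the second 2.14 and 0.61. Resistant against DMSO cells gave -0.30 ± 0.45 (adjusted p = 0.634).

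Over the 9 arrays, the genes whose log2 values were most like those of Cdkn1a 1424638_at were the kinetochore gene Ska1 (Pearson r = 0.985), the replication factor gene Gins2 (r = 0.985) and the replication initiation gene Cdc45 (r = 0.982). Ska1 averaged 336 in resistant, 63.7 in sensitive rapamycin and 678 in DMSO cells. The 9 points fall into 3 groups that share treatment, so the correlations describe the order of the group levels.

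Ccng1, which encodes cyclin G1, a p53 target that recruits a phosphatase to Mdm2, was low in the resistant line in all 3 of its probe sets. Probe set 1420827_a_at gave 312, 339 and 335 in resistant cells, 1167, 1509 and 1415 in sensitive rapamycin cells and 1632, 1727 and 1461 in DMSO cells. Resistant arrays lay far below both sensitive groups, which overlapped each other. Levels in the resistant line were 4.70-fold below DMSO cells (-2.23 ± 0.10, adjusted p = 1.23e-11) and 3.98-fold below sensitive rapamycin cells (-1.99 ± 0.10, adjusted p = 2.03e-11).

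The second Ccng1 probe set, 1450016_at, gave 267, 249 and 263 in resistant cells, 702, 649 and 788 in sensitive rapamycin cells and 766, 679 and 719 in DMSO cells. The third, 1450017_at, gave 175, 151 and 157 in resistant cells, 529, 645 and 591 in sensitive rapamycin cells and 597, 612 and 616 in DMSO cells. Both repeated the gap between the resistant and sensitive arrays, with changes against DMSO cells of -1.42 ± 0.10 (adjusted p = 3.13e-09) and -1.82 ± 0.11 (adjusted p = 3.97e-10). Between sensitive rapamycin and DMSO cells the 3 probe sets gave -0.24 ± 0.10 (adjusted p = 0.0842), -0.02 ± 0.10 (adjusted p = 0.915) and -0.05 ± 0.11 (adjusted p = 0.775). The brightest passed in that comparison without the third DMSO array (adjusted p = 0.0335), without the second sensitive rapamycin array (0.0422), under quantile normalization (0.0489) and with array weights (0.0349). Its promoter stretch, printed above, holds a near-complete pair of half-sites, as does that of Cdkn1a beside its exact pair.

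Gadd45a encodes a small stress protein that acts in growth arrest and DNA repair. Its 1 probe set, 1449519_at, gave 159.5, 169 and 185 in resistant cells, 402, 403 and 394 in sensitive rapamycin cells and 509, 436 and 508 in DMSO cells. The 3 groups did not overlap, resistant cells lowest and DMSO cells highest. Resistant cells were 2.67-fold below DMSO cells (-1.42 ± 0.11, adjusted p = 1.68e-08) and 2.22-fold below sensitive rapamycin cells (-1.15 ± 0.11, adjusted p = 1.15e-07), while sensitive rapamycin against DMSO cells gave -0.26 ± 0.11 (adjusted p = 0.0919).

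Trp53inp1 encodes a stress-induced partner of p53 that also acts in autophagy, and it was the member that rose in sensitive cells in rapamycin. Probe set 1416926_at gave 18.6, 3.19 and 20.98 in resistant cells, 215, 168 and 190.2 in sensitive rapamycin cells and 61.1, 47.9 and 40.02 in DMSO cells. No groups overlapped, and the resistant values lay below the filter limit of 22.2, where the pseudocount limits the change. In sensitive cells it was 3.17-fold higher with rapamycin (1.66 ± 0.31, adjusted p = 0.000497), a change of 1.94 with a pseudocount of 1 and 1.17 with 64. The resistant line was below sensitive rapamycin cells (-2.83 ± 0.31, adjusted p = 4.84e-07) and below DMSO cells (-1.16 ± 0.31, adjusted p = 0.00496). These 2 changes were -3.97 and -2.04 with a pseudocount of 1, and -1.71 and -0.54 with 64.

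A dimmer Trp53inp1 probe set, 1416927_at, gave 5.92, 11.3 and 3.43 in resistant cells, 65.1, 75.9 and 33.4 in sensitive rapamycin cells and 32.0, 22.6 and 16.4 in DMSO cells. The groups kept the same order without overlap, all 3 resistant values lay below the filter limit, and the probe set's mean was just above it. The sensitive rapamycin arrays, which are also in its 1 called comparison, raised the mean over that limit. Only resistant against sensitive rapamycin cells was called (-1.66 ± 0.40, adjusted p = 0.00219), with a size set by the pseudocount (-2.95 with 1 and -0.77 with 64); the changes were -0.79 ± 0.40 for resistant against DMSO cells (adjusted p = 0.128) and 0.87 ± 0.40 for sensitive rapamycin against DMSO cells (adjusted p = 0.123). With no eBayes trend both passed (adjusted p = 0.0411 and 0.0445).

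**Figure D2:**
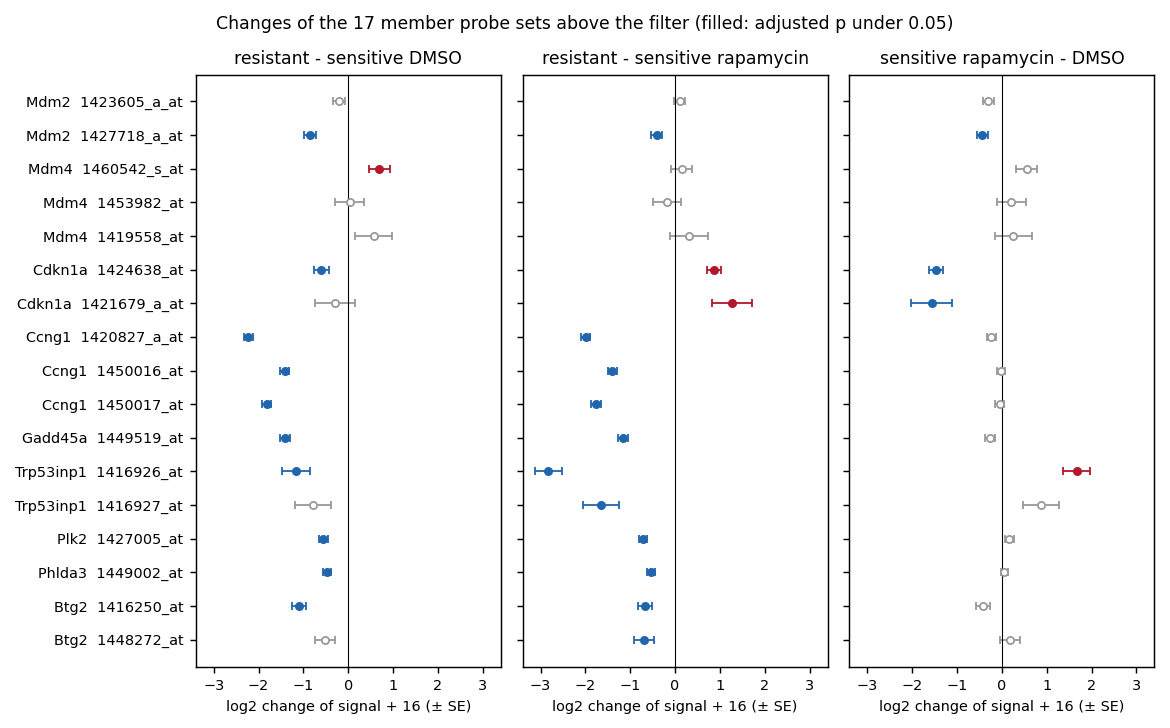
Change in log2(signal + 16) with its standard error (x axis) of the 17 tested member probe sets (rows) in each comparison (panels). Filled points were called, red higher and blue lower; the blue points gather in both panels of the resistant line, and 4 points are filled in the panel of sensitive cells with and without rapamycin.

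Plk2, Phlda3 and Btg2 also fell in the resistant line. Plk2 encodes a polo-like kinase, and probe set 1427005_at gave 352, 329.7 and 393 in resistant cells, 569, 577 and 651 in sensitive rapamycin cells and 541, 535 and 521 in DMSO cells. The resistant arrays lay below all others, and the sensitive rapamycin arrays all lay just above the DMSO arrays. The changes were -0.55 ± 0.10 for resistant against DMSO cells (adjusted p = 0.000169), -0.72 ± 0.10 against sensitive rapamycin cells (adjusted p = 7.51e-06) and 0.16 ± 0.10 for sensitive rapamycin against DMSO cells (adjusted p = 0.244).

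Phlda3 encodes a small pleckstrin homology protein that competes with AKT for membrane lipids. Probe set 1449002_at gave 658, 598 and 601 in resistant cells, 941, 845 and 922 in sensitive rapamycin cells and 818, 922 and 860.5 in DMSO cells. The resistant arrays lay below all sensitive arrays, which overlapped each other. Resistant cells were lower, by changes of -0.48 ± 0.08 against DMSO cells (adjusted p = 0.000185) and -0.53 ± 0.08 against sensitive rapamycin cells (adjusted p = 4.19e-05), and sensitive rapamycin against DMSO cells gave 0.06 ± 0.08 (adjusted p = 0.678).

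Btg2 encodes an antiproliferative protein that promotes shortening of mRNA tails. Probe set 1416250_at gave 89.9, 102 and 93.7 in resistant cells, 155, 162 and 167 in sensitive rapamycin cells and 217, 200.04 and 254 in DMSO cells. The 3 groups did not overlap. Resistant cells were 2.14-fold below DMSO cells (-1.10 ± 0.16, adjusted p = 2.43e-05) and 1.59-fold below sensitive rapamycin cells (-0.67 ± 0.16, adjusted p = 0.00198). Sensitive rapamycin against DMSO cells gave -0.43 ± 0.16 (adjusted p = 0.0577), which passed with 1 probe set per gene (adjusted p = 0.0497), a pseudocount of 64 (0.0437), arrays centred on the 75th percentile (0.0391), quantile normalization (0.0328), a filter at the 60th percentile (0.0386) and no eBayes trend (0.0248). Averaged over both Btg2 probe sets it was -0.13 (adjusted p = 0.562).

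The other Btg2 probe set, 1448272_at, gave 76.0, 63.99 and 51.7 in resistant cells, 115, 102 and 122 in sensitive rapamycin cells and 106, 107 and 83.3 in DMSO cells. Its resistant arrays lay below all others, and its sensitive groups overlapped. The change was -0.70 ± 0.22 for resistant against sensitive rapamycin cells (adjusted p = 0.0142), -0.53 ± 0.22 against DMSO cells (adjusted p = 0.0653) and 0.18 ± 0.22 for sensitive rapamycin against DMSO cells (adjusted p = 0.618). Without the third DMSO array the second of these passed (-0.63, adjusted p = 0.0245), as it did with a filter at the 60th percentile (0.0432), no eBayes trend (0.021) and array weights (0.0161). The first was lost without the third sensitive rapamycin array (adjusted p = 0.0554) or the third resistant array (0.0712) and under quantile normalization (0.127).

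**Figure D3:**
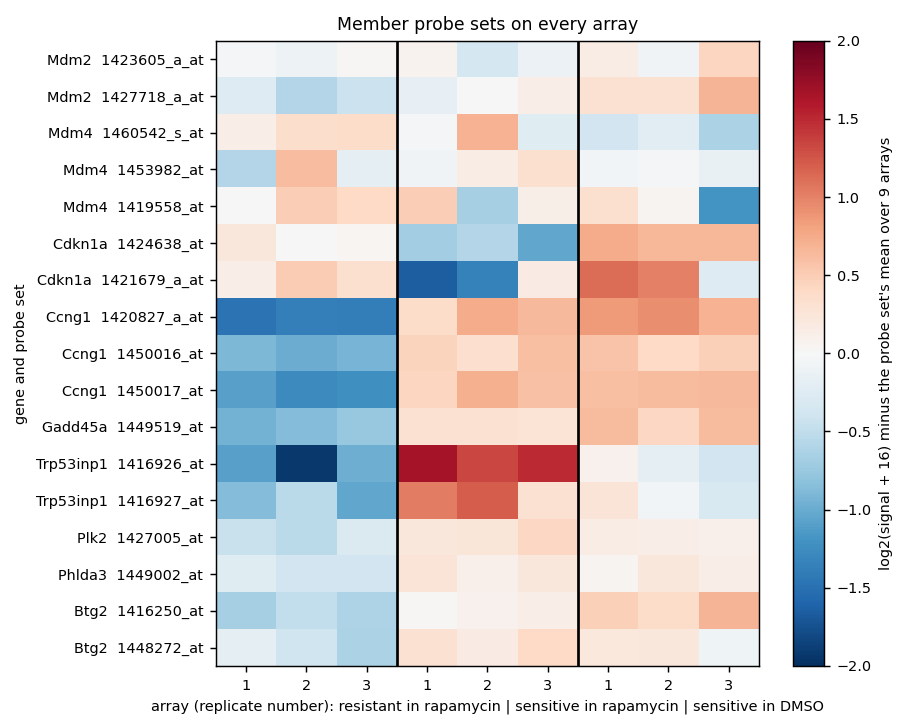
Each of the 17 tested member probe sets (rows) on each of the 9 arrays (columns), as log2(signal + 16) minus that probe set's mean over the 9 arrays. The 3 Ccng1 rows and the Gadd45a row are low on all resistant arrays, Trp53inp1 is high on the sensitive rapamycin arrays, and the dim Mdm4 rows vary within groups.

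Other genes of the pathway were read through their brightest probe set. Of 32 tested p53 regulators, 14 were higher and 4 lower in the resistant line than in DMSO cells (25.5% and 25.3% of all genes), with a median change of 0.20 against -0.07 among all genes. The highest change was in Gnl3, which encodes nucleostemin, a nucleolar protein that binds Mdm2 (1.96 ± 0.07, adjusted p = 1.03e-12). Cdkn2a, the locus of the Mdm2 inhibitor ARF and of p16, averaged 325 ± 105 in resistant cells and 94.6 ± 41.3 in DMSO cells (1.64 ± 0.26, adjusted p = 5.82e-05), and its probe set was not assigned to either product here. In sensitive cells with rapamycin 10 of these regulators fell and 4 rose (14.5% and 19.2% of all genes), among them the checkpoint kinase genes Chek1 (-2.45 ± 0.19) and Chek2 (-1.33 ± 0.12).

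Of 17 tested p53 targets of cell death, 6 were higher and 4 lower in the resistant line than in DMSO cells, with a median of -0.16 (25.5%, 25.3% and -0.07 over all genes). Against sensitive rapamycin cells 5 were higher and 4 lower, with a median of 0.13, of the opposite sign (25.9%, 29.9% and -0.08 over all genes). Against DMSO cells Siva1 (1.05 ± 0.11) and Zmat3 (0.78 ± 0.14), whose product binds RNA, were higher, and Casp6, a caspase gene (-1.17 ± 0.10), and Apaf1, the apoptosome scaffold (-0.72 ± 0.14), were lower. In sensitive cells 4 of 17 fell and 1 rose with rapamycin (14.5% and 19.2% of all genes), and the falls included Siva1 (-0.87 ± 0.11) and Aen, a nuclease (-0.67 ± 0.12). Of 37 tested targets in repair, metabolism and stress protection, 16 were lower and 9 higher in resistant than in DMSO cells, with a median of -0.32 (25.3%, 25.5% and -0.07 over all genes). Thbs1, thrombospondin, averaged 127 ± 10.5 in resistant cells, 3032 ± 401 in sensitive rapamycin cells and 929.5 ± 67.5 in DMSO cells. In sensitive cells 8 rose and 8 fell with rapamycin (19.2% and 14.5% of all genes), and the count that rose was near that background. Thbs1 was among those that rose (1.68 ± 0.10). The falls included Pcna, the replication clamp (-1.52 ± 0.09), and Gtse1, whose microtubule-binding product also binds p53 (-2.75 ± 0.19).

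Genes that p21 and the DREAM complex hold down moved the same way as Cdkn1a between the sensitive groups. All 19 tested were lower in sensitive rapamycin than in DMSO cells, where 14.5% of all genes were. Their median change was -2.17 (0.03 over all genes), beside the Cdkn1a change of -1.46. All 19 were higher in resistant than in sensitive rapamycin cells, where 25.9% of all genes were. Their median there was 2.34 (-0.08 over all genes), beside 0.87 for Cdkn1a. Against DMSO cells the resistant line had 5 higher and 2 lower (25.5% and 25.3% of all genes), with the higher count near that background. The median was 0.02 (-0.07 over all genes). Aurka, a mitotic kinase gene, averaged 2299 ± 31.9 in resistant cells, 282 ± 12.0 in sensitive rapamycin cells and 2002 ± 123 in DMSO cells. Of this list, Chek1 is also counted among the p53 regulators and Plk1 among the relatives of the members. The fall of replication and mitosis genes with rapamycin was known when this list was chosen. The rise in resistant cells is read against the same sensitive rapamycin arrays. Control of these genes by p21 or DREAM was not tested.

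**Figure D4:**
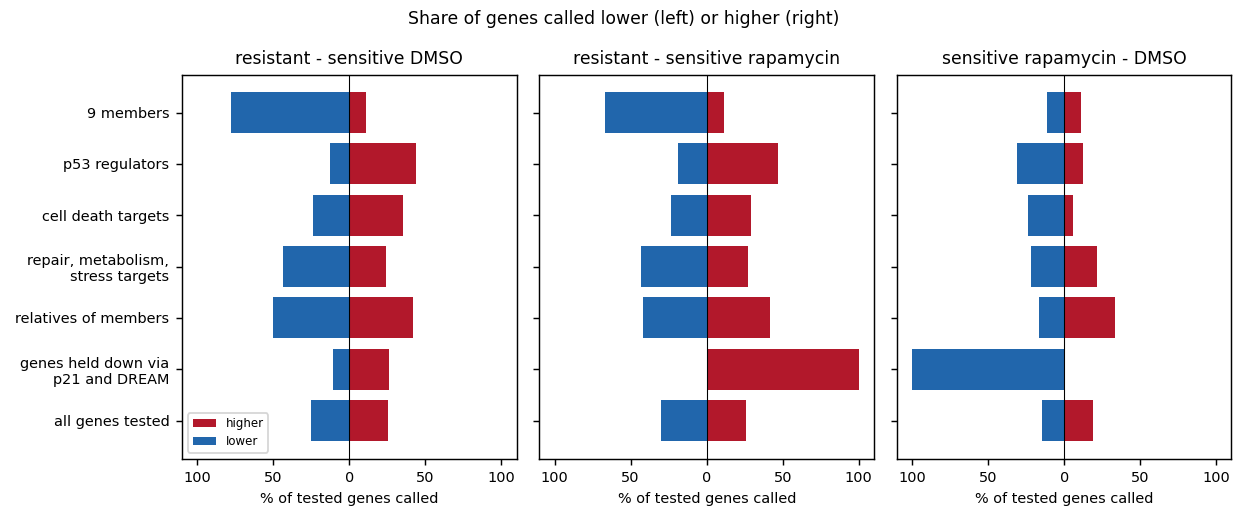
Share of tested genes (x axis, percent) called higher (red, to the right) or lower (blue, to the left) for the 9 members, 5 lists of related genes and all genes tested, in each comparison. The members lean to lower in both panels of the resistant line, and the genes held down through p21 and DREAM are all lower with rapamycin in sensitive cells.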

How the data were processed

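The authors deposited linear signal intensities for each probe set. Per the submitters' processing notes, these came from the Affymetrix software GCOS 1.4, and no source used here gives the summary algorithm. On every array the mean after trimming 2% of values from either end was 250.0. Detection calls and batches were not used here, and the number of arrays limits the precision. Groups came from the sample titles. Of 45101 probe sets, 64 controls were left out; 34945 carried 1 gene symbol in the platform annotation, 932 several and 9160 none, and the symbols of all 20 member probe sets matched RefSeq's mouse gene table.

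Values were used as log2(signal + 16), since the arrays' 75th percentiles differed by 0.17, under a limit of 0.2. This difference lay along the groups, with 7.85 to 7.89 on the resistant arrays and 7.93 to 8.02 on the sensitive arrays. Group means over all 9 arrays were fitted to 27022 probe sets with limma 3.58.1 in R 4.3.3 (eBayes with a trend), with Benjamini-Hochberg adjustment within each of 3 comparisons. The fit was tested on simulated data. Named genes were all members, up to 4 called genes with the largest change per list and comparison, and the 3 genes most like Cdkn1a. Members, lists and rules were chosen with earlier results of these data known. There were 12 alternatives (pseudocount, scaling, filter, trend, unit of the fit, array weights, arrays used, replicate block), and each of 9 arrays was left out in turn.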

Additional observations from a re-analysis of the deposited data

How the results depend on the processing

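No called member probe set changed direction under any of the 12 alternatives or when any 1 of 9 arrays was left out. Of the values for members in these settings, by probe set or gene, 29 lost a call, 21 gained one and 958 stayed called or uncalled. Uncalled values whose sign changed are among the 958. The count of higher member probe sets in resistant against sensitive rapamycin cells was 1 in place of 2 with a pseudocount of 64, a filter at the 60th percentile and no eBayes trend. The count of higher ones in sensitive rapamycin against DMSO cells was 0 with the filter at the 60th percentile, where Trp53inp1 was left out, and 2 with no trend. With 1 array left out, the higher counts ran from 0 to 1 (resistant against DMSO), 1 to 2 (resistant against sensitive rapamycin) and 1 to 2 (sensitive rapamycin against DMSO), and the lower counts from 10 to 11, 9 to 11 and 2 to 3. Calls over all probe sets ran from 10229 to 12013, 11601 to 14131 and 6308 to 8079 in the same order. Centring on the 75th percentile moved the median change of all probe sets up by 0.13 in resistant against sensitive rapamycin cells. Quantile normalization moved that of resistant cells up by 0.12 against DMSO cells and 0.13 against sensitive rapamycin cells. In resistant against sensitive rapamycin cells the balance over all probe sets turned, with 5909 higher and 6976 lower as reported, 7026 and 5818 with centring, and 6602 and 6218 with quantile normalization. Against DMSO cells it was 5871 and 5948 as reported, 6881 and 4995 with centring, and 6591 and 5354 with quantile normalization. The replicate numbers share only a number, with correlations of deviations between -0.08 and 0.01 over 9 pairs, and 0 arrays matched best with their own number in both other groups. With the replicate block, member counts stayed at 10 lower and 1 higher, 11 and 2, and 3 and 1, and calls over all probe sets were 11508, 12677 and 7294.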

Other observations

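Relatives of the members split in direction. Of 12 tested, 6 were lower and 5 higher in the resistant line than in DMSO cells (25.3% and 25.5% of all genes). Phlda1 (-2.08 ± 0.09), Trp53inp2, which acts in autophagy (-1.39 ± 0.10), and Gadd45g (-1.14 ± 0.10) were lower beside their relatives among the members, and Tob1, an antiproliferative relative of Btg2, was higher (0.92 ± 0.10). In sensitive cells with rapamycin, 4 of 12 rose and 2 fell (19.2% and 14.5% of all genes). Trp53inp2 rose (0.97 ± 0.10, adjusted p = 1.2e-06) as Trp53inp1 did, averaging 1038 ± 69.8 in sensitive rapamycin cells and 524 ± 49.6 in DMSO cells, and Gadd45b rose (0.55 ± 0.10, adjusted p = 0.000436) where Gadd45a was not called. The mitotic polo kinase genes Plk1 (-2.17 ± 0.09) and Plk4 (-2.18 ± 0.11) fell, where Plk2 was not called.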
